A study of Mus musculus with 10 samples.

Results

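The 6 genes described here are *Lrrc75b*, *Ggt5*, *Dapl1*, *Myo10*, *Hs3st3b1* and *Cyp2s1*, protein-coding transcripts that are less known in regulatory T cells (Tregs) and that were low in Tregs of WT mice. They were selected on their values: each had few counts in WT FoxP3+CD25+ libraries and many in WT FoxP3-CD25- libraries, or was displayed by the study among genes of that kind. They are 6 of the 48321 gene symbols counted. The WT difference between both populations is therefore a description and was not tested for them. *Dapl1*, *Myo10*, *Hs3st3b1* and *Cyp2s1* are also among genes displayed for their weight in principal components over all 10 libraries, so KO libraries may have had a part in their choice, whereas *Lrrc75b* and *Ggt5* are not.

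The study asked what loss of SATB1, a chromatin organizer, does to Tregs and other CD4+ T cells, and sequenced RNA of spleen CD4+ T cells of C57BL/6 mice. All mice carried a reporter in which GFP is translated from the *Foxp3* transcript, so that GFP (Gfp in the library labels) stands for FoxP3. KO mice were *Satb1* F/F with *Thpok-cre*, a Cre that is active in the CD4+ lineage from its commitment, so that by design the deletion is not limited to FoxP3+ cells of KO mice. Whether WT mice carried floxed alleles or Cre was not given in the sources used here. The methods describe adult mice of mixed sexes and no treatment. Each of 5 groups had 2 libraries: FoxP3+CD25+ and FoxP3-CD25- cells of either genotype, plus FoxP3+CD25- cells of KO mice. The numbers in the labels were read as mice (WT1, WT2, KO1 and KO2), which they imply but do not state. Values are given for replicate 1 before replicate 2.

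Tregs are CD4+ T cells that restrain immune responses. Their transcription factor FoxP3 is known both to raise genes such as *Il2ra*, which encodes the interleukin receptor chain CD25, and to keep other genes low, and a gene that is shut in Tregs can be as telling of their state as one that is raised. Of the 6 genes, 3 encode enzymes that act on small molecules or sugars. *Ggt5* encodes a cell surface gamma-glutamyltransferase, which removes the glutamyl group from glutathione and its conjugates, among them a cysteinyl leukotriene. *Hs3st3b1* encodes a Golgi sulfotransferase that adds sulfate to heparan sulfate, a sugar chain of cell surface proteins that binds growth factors and chemokines. *Cyp2s1* encodes a cytochrome P450 enzyme, known as a target of the aryl hydrocarbon receptor. *Myo10* encodes an unconventional myosin that travels to the tips of filopodia, thin protrusions of the cell surface. *Dapl1* encodes a small relative of the death-associated protein Dap, and *Lrrc75b* a leucine-rich repeat protein, and the role of both in T cells is little known.

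The authors deposited raw counts of reads per gene. Gene counts of a library added up to 6094952 to 12410064 (median 7721649). Levels are CPM, the standard unit of counts relative to library size, scaled by TMM factors (a correction for library composition), with the SD over 2 libraries. The floor was set at 3 counts, or 0.242 to 0.492 CPM before scaling. It and the counting intervals leave out variation between mice. Differences between groups were tested by the two-sided quasi-likelihood F-test of edgeR, fitted to the 10 libraries together with 5 residual degrees of freedom, over 13796 genes past a filter on low counts, and FDR is the Benjamini-Hochberg adjusted p over those genes. A gene that passed the filter only through groups in which it is high had to differ from the others. For a named gene of this kind, a difference between a high and a low group is given with no FDR. Counts of genes called include such genes. With 2 libraries on either side, no exact permutation p can be smaller than 0.333. A fold change of a transcript in sorted cells can come from fewer cells that hold it or from less RNA per cell, and these cannot be told apart here.

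Markers followed the sort. *Foxp3* stood at 667 ± 69.1 CPM in WT and 693 ± 65.5 CPM in KO FoxP3+CD25+ cells, at 339 ± 30.8 CPM in KO FoxP3+CD25- cells, and at 18.3 ± 0.481 and 29.2 ± 13.7 CPM in WT and KO FoxP3-CD25- cells (SD, n = 2). *Il2ra* was at 709 ± 72.4 and 653 ± 36.6 CPM in WT and KO FoxP3+CD25+ cells and at 16.8 ± 0.0504 CPM or less in the other groups. *Satb1* had 428 ± 69.6 CPM in WT and 566 ± 45.5 CPM in KO FoxP3+CD25+ cells, and 849 ± 44.9 and 762 ± 113 CPM in WT and KO FoxP3-CD25- cells, whose libraries overlapped. It was highest in KO FoxP3+CD25- cells, with 1089.5 ± 136 CPM, above every WT library. Counts per gene do not resolve the deleted exons, so they do not check the KO label. The libraries of mouse WT1 stood apart in holding 14487 and 16362 counts of *Xist*, the RNA of the inactive X chromosome, against at most 4 in the other 8 libraries, and no counts of 4 genes of the Y chromosome.

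All 5 CD4+ T cell markers were counted in every library, at a sum of 2679 to 3434 CPM. Of 8 Treg markers, 7 or 8 were counted in each library, and they summed to 3334 to 4108 CPM in FoxP3+CD25+ libraries, 772 and 579 CPM in KO FoxP3+CD25- libraries and 206 to 410 CPM in FoxP3-CD25- libraries. Among 7 B cell markers, 4 to 7 were counted, *Ighm* made up most of the sum, and the sum was higher in FoxP3+CD25+ libraries (604 and 420 CPM in WT, 374 and 434 CPM in KO) than in FoxP3-CD25- libraries (331.5 and 306 CPM in WT, 225 and 274 CPM in KO) and KO FoxP3+CD25- libraries (255.1 and 301 CPM). *Ighm* alone had 578 and 396 CPM in WT and 352 and 412 CPM in KO FoxP3+CD25+ libraries. It had 326 and 302.5 CPM in WT and 215 and 265 CPM in KO FoxP3-CD25- libraries, and 248 and 295 CPM in KO FoxP3+CD25- libraries. The rest of the B cell sum was thus also larger in each FoxP3+CD25+ library than in any other library, although the marker *Ms4a1* was at 0 in 8 of the 10 libraries. Markers of other cells summed to 9.38 to 16.6 CPM for CD8+ T cells, 17.6 to 25.1 CPM for myeloid cells, 1.09 to 8.06 CPM for dendritic cells (*Zbtb46* highest in sum), 0 to 3.95 CPM for NK cells, 0 to 1.31 CPM for red cells and platelets, and 180 to 335 CPM for stromal cells (nearly all *Pecam1*, which T cells also express). In WT mice the dendritic cell sum was higher in FoxP3+CD25+ (8.06 and 4.49 CPM) than in FoxP3-CD25- libraries (1.49 and 1.65 CPM). Most of that was *Zbtb46*, with 7.04 and 3.66 against 0.828 and 1.445 CPM. *Itgax*, *Flt3* and *Siglech* were at 0 in both WT FoxP3+CD25+ libraries, and *Itgax* was counted in both WT FoxP3-CD25- libraries. NK cell markers were lower in WT FoxP3+CD25+ than in WT FoxP3-CD25- libraries (0.128 and 0.472 against 1.24 and 1.75 CPM). In KO mice dendritic cell markers of FoxP3+CD25+ (3.967 and 3.538 CPM) and FoxP3-CD25- libraries (3.97 and 1.844 CPM) overlapped, with 1.94 and 1.094 CPM in FoxP3+CD25- libraries. NK cell markers had 1.068 and 0.786 CPM in KO FoxP3+CD25+ and 0 and 0.547 CPM in KO FoxP3+CD25- libraries. KO FoxP3-CD25- libraries had more, at 1.985 and 3.952 CPM. The part of these transcripts in the results was not tested.

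*Ggt5* lies at chr10:75589340-75617200 (GRCm38, plus strand). In WT mice it had 16 and 8 counts in FoxP3+CD25+ libraries (2.05 and 0.945 CPM) and 621 and 612 counts in FoxP3-CD25- libraries (51.4 and 63.2 CPM). In KO mice it had 7 and 13 counts in FoxP3+CD25+ cells (1.07 and 1.70 CPM), 156 and 291 in FoxP3+CD25- cells (25.2 and 31.8 CPM), and 237 and 265 in FoxP3-CD25- cells (39.2 and 34.9 CPM). The FoxP3+CD25+ libraries of both genotypes overlapped and lay far below the other 6 libraries, and the 3 other groups stood in the order WT FoxP3-CD25-, KO FoxP3-CD25- and KO FoxP3+CD25- with no overlap between their libraries.

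*Lrrc75b*, at chr10:75550123-75560330 (minus strand), is a neighbour of *Ggt5* and was the lowest of the 6 genes per exon length in Tregs. It had 5 and 4 counts in WT FoxP3+CD25+ libraries (0.640 and 0.472 CPM) and 281 and 341 in WT FoxP3-CD25- libraries (23.3 and 35.2 CPM). In KO mice the counts were 7 and 1 in FoxP3+CD25+ cells (1.07 and 0.131 CPM), 81 and 222 in FoxP3+CD25- cells (13.1 and 24.3 CPM), and 108 and 166 in FoxP3-CD25- cells (17.9 and 21.9 CPM). The 4 FoxP3+CD25+ libraries thus sat close to the floor, and KO FoxP3+CD25- libraries overlapped with KO FoxP3-CD25- libraries. Because 1 count carries little information, the ratio of FoxP3-CD25- to FoxP3+CD25+ cells is also given with an exact Clopper-Pearson 95% interval. Over both libraries of a population it was 35.6 in KO mice (17.8 to 83.4), and in mouse KO2, with 1 count, 167 (29.6 to 6632). In WT mice, whose values selected the gene, it was 51.7.

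*Hs3st3b1* (chr11:63885792-63922290, minus strand) kept the most counts of the 6 genes in Tregs. It had 139 and 93 counts in WT FoxP3+CD25+ libraries (17.8 and 10.99 CPM) and 832 and 913 in WT FoxP3-CD25- libraries (68.9 and 94.2 CPM). KO libraries held 132 and 100 counts in FoxP3+CD25+ cells (20.1 and 13.1 CPM), 620 and 747 in FoxP3+CD25- cells (100.2 and 81.7 CPM), and 500 and 468 in FoxP3-CD25- cells (82.7 and 61.7 CPM). The order of the 3 higher groups was KO FoxP3+CD25-, WT FoxP3-CD25- and KO FoxP3-CD25-, but neighbours in that order overlapped, as did both FoxP3+CD25+ groups. Its close relative *Hs3st3a1* encodes a nearly identical sulfotransferase domain, so reads that match both genes would be set aside as not unique, and the counts of both are uncertain to that extent.

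*Cyp2s1* (chr7:25802475-25816913, minus strand) had 31 and 26 counts in WT FoxP3+CD25+ libraries (3.97 and 3.07 CPM) and 294 and 341 in WT FoxP3-CD25- libraries (24.4 and 35.2 CPM). In KO mice it had 26 and 36 counts in FoxP3+CD25+ cells (3.97 and 4.72 CPM), 165 and 247 in FoxP3+CD25- cells (26.7 and 27.0 CPM), and 209 and 264 in FoxP3-CD25- cells (34.6 and 34.8 CPM). The 4 Treg libraries were within 3.07 to 4.72 CPM, and WT FoxP3-CD25- libraries overlapped with both higher KO groups. The noncoding RNA gene *Gm26707* on the other strand shares 260 exon bases with *Cyp2s1*. It had 21 counts over all 10 libraries, and the strand setting of the counting was not stated, so reads in the shared bases cannot be assigned to a strand.

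*Myo10* (chr15:25622525-25813673, plus strand) had 39 and 50 counts in WT FoxP3+CD25+ libraries (4.99 and 5.91 CPM) and 221 and 361 in WT FoxP3-CD25- libraries (18.3 and 37.3 CPM). In KO mice the counts were 43 and 24 in FoxP3+CD25+ cells (6.56 and 3.14 CPM), 93 and 133 in FoxP3+CD25- cells (15.03 and 14.6 CPM), and 167 and 157 in FoxP3-CD25- cells (27.6 and 20.7 CPM). KO FoxP3+CD25- cells thus stood between both other KO populations without overlap, and the replicates of WT FoxP3-CD25- cells were farther apart (27.8 ± 13.4 CPM) than those of KO FoxP3+CD25- cells (14.8 ± 0.340 CPM; SD, n = 2).

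*Dapl1* (chr2:59484653-59505020, plus strand) was the gene whose level differed most between WT and KO mice. It had 34 and 49 counts in WT FoxP3+CD25+ libraries (4.35 and 5.79 CPM) and 684 and 692 in WT FoxP3-CD25- libraries (56.7 and 71.4 CPM). KO libraries held 49 and 55 counts in FoxP3+CD25+ cells (7.48 and 7.21 CPM), 173 and 431 in FoxP3+CD25- cells (28.0 and 47.2 CPM), and 115 and 227 in FoxP3-CD25- cells (19.0 and 29.9 CPM). Both WT FoxP3-CD25- libraries were above every KO library, and both KO FoxP3+CD25+ libraries were slightly above both WT FoxP3+CD25+ libraries.

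**Figure D1:**
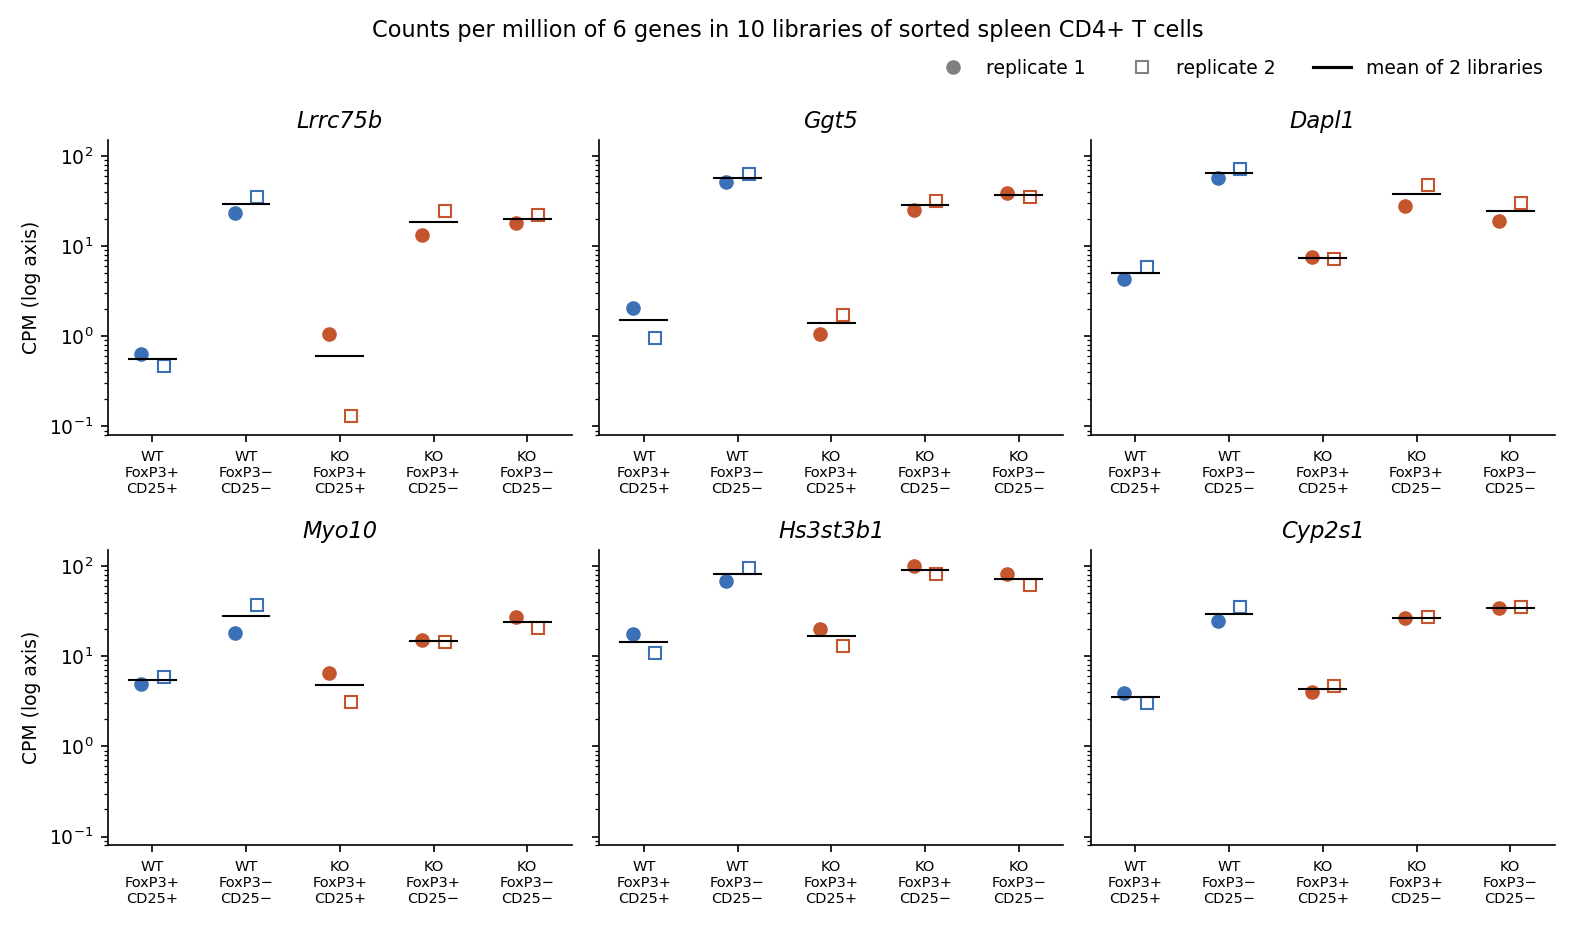
CPM (log axis) of each of the 6 genes in the 5 groups, with circles for replicate 1, squares for replicate 2 and a line at the mean of 2 libraries; WT is blue and KO red. In every panel the 4 FoxP3+CD25+ libraries lie below the other 6, from 0.131 CPM for *Lrrc75b* in mouse KO2 to 20.1 CPM for *Hs3st3b1* in mouse KO1.

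Levels of different genes were compared per kilobase of annotated exon. In WT FoxP3-CD25- cells *Dapl1*, whose exons span 679 bases, led with 94.3 ± 15.4 CPM per kilobase, followed by *Hs3st3b1* with 16.6 ± 3.64, *Ggt5* with 9.67 ± 1.40, *Lrrc75b* with 6.35 ± 1.83, *Cyp2s1* with 6.03 ± 1.55 and *Myo10* with 2.74 ± 1.32 (SD, n = 2). *Dapl1* also led in the other 4 groups, at 7.47 ± 1.497 CPM per kilobase in WT and 10.8 ± 0.282 in KO FoxP3+CD25+ cells. *Ggt5* and *Lrrc75b*, in the middle of the order in WT FoxP3-CD25- cells, were last in FoxP3+CD25+ cells, with 0.253 ± 0.132 and 0.121 ± 0.0257 CPM per kilobase in WT and 0.234 ± 0.0758 and 0.130 ± 0.144 in KO mice.

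The WT values that selected the genes, given with no test, were as follows. The fitted log2 fold change of FoxP3+CD25+ against FoxP3-CD25- cells was -5.68 for *Lrrc75b*, -5.26 for *Ggt5*, -3.65 for *Dapl1*, -3.07 for *Cyp2s1*, -2.51 for *Hs3st3b1* and -2.33 for *Myo10*. Both FoxP3+CD25+ libraries lay below both FoxP3-CD25- libraries for 6 of 6 genes, which the selection set. In this comparison 7.15% of all genes tested were higher and 3.75% lower at FDR under 0.05, and 23.9% had both libraries below both.

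The same difference was measured within KO mice, in libraries that the WT contrast did not use. *Ggt5* was lower in KO FoxP3+CD25+ than in KO FoxP3-CD25- cells at FDR under 0.05. With 7 and 13 counts in the former, near the filter's minimum count setting of 10, it passed the filter mostly through populations in which it is high. Its FDR is given with that limit. *Dapl1*, *Myo10*, *Hs3st3b1* and *Cyp2s1* were also lower at that threshold, but KO libraries may have had a part in their choice. The FDR of these genes thus describes the fit and is no independent test. Among all genes tested 2.81% were lower and 3.52% higher in this comparison, and 23.0% had both FoxP3+CD25+ libraries below both FoxP3-CD25- libraries, as each of the 6 genes had. *Lrrc75b* passed the filter on low counts only through populations in which it is high, so it had to differ, and its fold change is given with no test. The median log2 fold change over all genes tested was -0.00123.

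*Ggt5* fell by 4.70 on the log2 scale in KO Tregs (SE 0.30, 26.0-fold lower, edgeR FDR = 1.71e-05), and *Lrrc75b* by 5.10 (SE 0.58, 34.4-fold lower). The size for *Lrrc75b* rests on few counts: it was -7.09 without KO FoxP3+CD25+ replicate 1 and -4.20 without replicate 2. *Cyp2s1* was 7.92-fold lower (log2 fold change -2.99, SE 0.24, edgeR FDR = 5.97e-05) and *Hs3st3b1* 4.36-fold lower (log2 fold change -2.12, SE 0.27, edgeR FDR = 0.00109), so both enzymes kept a larger share of their FoxP3-CD25- level than *Ggt5*. *Myo10* was 5.03-fold lower (log2 fold change -2.33, SE 0.41, edgeR FDR = 0.00596) and *Dapl1* 3.36-fold lower (log2 fold change -1.75, SE 0.32, edgeR FDR = 0.00742). The calls of these last genes were lost without single libraries, which leaves 1 library in a group. *Dapl1* had a log2 fold change of -1.77 (edgeR FDR 0.0529) without KO FoxP3+CD25+ replicate 1, -1.72 (0.0685) without replicate 2 and -1.37 (0.0686) without KO FoxP3-CD25- replicate 2, and over all alternatives its adjusted p ran from 1.39e-06 by DESeq2 to 0.0686 by edgeR. *Myo10* had a log2 fold change of -1.87 (edgeR FDR 0.0690) without KO FoxP3+CD25+ replicate 2 and -2.93 (0.0132) without replicate 1, and its adjusted p ran from 1.13e-07 by DESeq2 to 0.0690 by edgeR.

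Within mice the ratio of FoxP3-CD25- to FoxP3+CD25+ CPM was above 1 for each gene in each of the 4 mice. For *Ggt5* it was 25.1 and 66.8 in WT1 and WT2 and 36.7 and 20.5 in KO1 and KO2, so the genotypes overlapped. Overlap also held for *Myo10* (3.67 and 6.31 in WT, 4.21 and 6.58 in KO), *Hs3st3b1* (3.87 and 8.58 in WT, 4.11 and 4.71 in KO) and *Cyp2s1* (6.14 and 11.5 in WT, 8.71 and 7.37 in KO). *Lrrc75b*, with 36.4 and 74.5 in WT and 16.7 and 167 in KO, had the widest spread. *Dapl1* was the exception, with 13.0 and 12.3 in WT mice and 2.54 and 4.15 in KO mice.

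**Figure D2:**
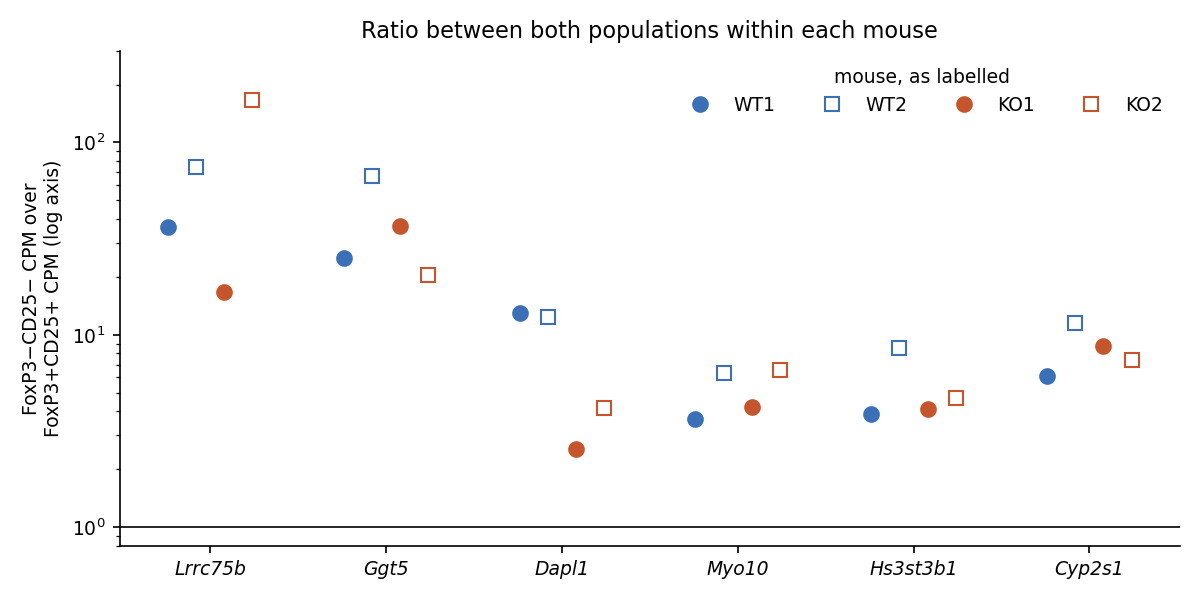
Ratio of CPM in FoxP3-CD25- cells to CPM in FoxP3+CD25+ cells of the same mouse (log axis; line at 1) for each gene, with WT mice in blue, KO mice in red, circles for replicate 1 and squares for replicate 2. The ratios of both genotypes overlap for all genes but *Dapl1* (13.0 and 12.3 in WT, 2.54 and 4.15 in KO), and the ratio of 167 for *Lrrc75b* in KO2 rests on 1 count.

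KO FoxP3+CD25- cells carry the *Foxp3* reporter signal without CD25, and the comparison with FoxP3-CD25- cells asks whether the 6 genes were low there too. At FDR under 0.05 edgeR called 0 of 6 genes different (FDR 0.448 to 0.980), 1 of 6, *Dapl1*, had an unadjusted p under 0.05, and DESeq2 called 0. Among all genes tested 0.319% were higher and 1.35% lower. *Dapl1* had a log2 fold change of 0.62 (SE 0.27, edgeR FDR = 0.448; 0.18 to 0.99 over all alternatives), higher in FoxP3+CD25- cells, and with the mouse as a block it was called, at 0.61 (SE 0.15, edgeR FDR = 0.0426; 0.0426 to 0.925 over all alternatives). In both KO mice its level in FoxP3+CD25- cells was above that in FoxP3-CD25- cells of the same mouse, by 1.47 and 1.58 times. *Hs3st3b1* had a log2 fold change of 0.33 (SE 0.24; 0.13 to 0.56 over all alternatives) and was 1.21 and 1.33 times as high in FoxP3+CD25- cells in KO1 and KO2. The other genes had negative estimates, of -0.70 (SE 0.34) for *Myo10*, -0.37 (SE 0.19) for *Cyp2s1*, -0.37 (SE 0.20; -0.55 to -0.22 over all alternatives) for *Ggt5* and -0.06 (SE 0.32) for *Lrrc75b*. The sign for *Lrrc75b* turned without KO FoxP3+CD25- replicate 1 (0.28) or KO FoxP3-CD25- replicate 2 (0.09). These values do not show that the levels were equal. Ratios within mice were 0.544 and 0.704 for *Myo10*, 0.772 and 0.777 for *Cyp2s1* and 0.643 and 0.912 for *Ggt5*. For these genes both FoxP3+CD25- libraries lay below both FoxP3-CD25- libraries. The share of all genes with that order was not computed in this comparison, so it is a description.

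Against KO FoxP3+CD25+ cells, which share the reporter signal, KO FoxP3+CD25- cells were higher for *Ggt5* and, with the same limit on their choice, for *Cyp2s1*, *Hs3st3b1*, *Dapl1* and *Myo10* at FDR under 0.05, where 2.25% of all genes tested were higher and 4.76% lower. This comparison shares libraries with both comparisons above, and the limit on the FDR of *Ggt5* applies to it too. The fold was 32.8 for *Lrrc75b* (log2 fold change 5.04, SE 0.57, with no test), 20.2 for *Ggt5* (4.34, SE 0.31, edgeR FDR = 3.56e-05), 6.14 for *Cyp2s1* (2.62, SE 0.24, FDR = 0.000138), 5.49 for *Hs3st3b1* (2.46, SE 0.27, FDR = 0.000393), 5.17 for *Dapl1* (2.37, SE 0.31, FDR = 0.000915) and 3.10 for *Myo10* (1.63, SE 0.42, FDR = 0.0417). Both libraries of FoxP3+CD25- cells were above both of FoxP3+CD25+ cells for each gene, an order whose share over all genes was not computed here. For *Lrrc75b* the log2 fold change was 7.03 without KO FoxP3+CD25+ replicate 1 and 4.14 without replicate 2. *Myo10* was not called by edgeR without KO FoxP3+CD25- replicate 1 (FDR 0.128) or replicate 2 (FDR 0.149), KO FoxP3+CD25+ replicate 2 (FDR 0.279), or WT FoxP3+CD25+ replicate 1 (FDR 0.0576) or replicate 2 (FDR 0.0518), which enter the estimate of the spread, and its adjusted p was 0.000776 by DESeq2 to 0.279 by edgeR over all alternatives. Without KO FoxP3+CD25+ replicate 1 its log2 fold change was 2.23 (FDR 0.0494).

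**Figure D3:**
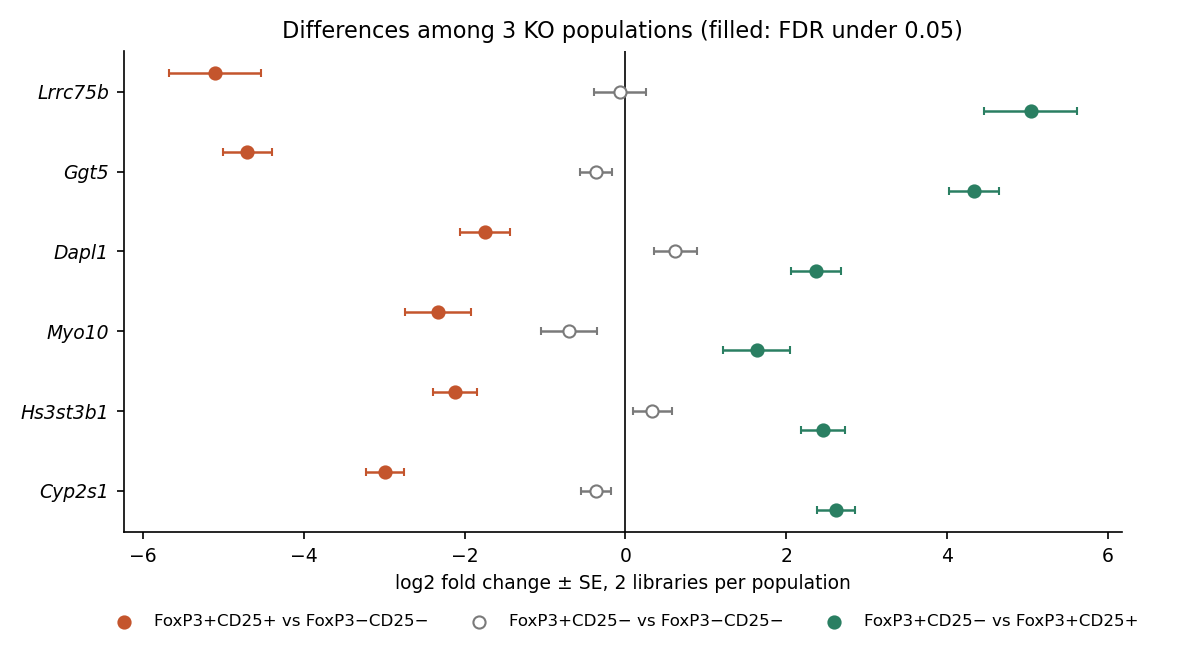
Fitted log2 fold change (x axis) with SE bars for the 6 genes in the 3 comparisons among KO populations (2 libraries each). Filled points passed FDR under 0.05 and open points did not. The filled points of *Lrrc75b* are no test and their fill is to be disregarded, since it passed the filter only through populations in which it is high. FoxP3+CD25+ cells are lower than both other populations, from -1.75 for *Dapl1* to -5.10 for *Lrrc75b* against FoxP3-CD25- cells, whereas FoxP3+CD25- cells lie between -0.70 and 0.62 of FoxP3-CD25- cells.

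Differences between KO and WT mice use the WT libraries that chose the genes and are given with no test. In FoxP3+CD25+ cells the log2 fold change of KO against WT was 0.53 for *Dapl1*, 0.31 for *Cyp2s1*, 0.20 for *Hs3st3b1*, 0.03 for *Lrrc75b*, -0.07 for *Ggt5* and -0.20 for *Myo10*. In FoxP3-CD25- cells it was -1.37 for *Dapl1*, -0.63 for *Ggt5*, -0.54 for *Lrrc75b*, -0.20 for *Myo10*, -0.18 for *Hs3st3b1* and 0.23 for *Cyp2s1*. Thus *Dapl1*, *Ggt5* and *Lrrc75b* had both KO FoxP3-CD25- libraries below both WT libraries, whereas the libraries of *Myo10*, *Hs3st3b1* and *Cyp2s1* overlapped. The share of all genes with such an order was not computed between genotypes, so the order is a description of single genes. The median over all genes tested was -0.00314 in Tregs and -0.00272 in FoxP3-CD25- cells.

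The table of RefSeq promoters (GRCm38.p6) used here held 4 of the 6 genes, *Dapl1*, *Myo10*, *Hs3st3b1* and *Cyp2s1*. Since the genes were low together in Tregs, the 250 bases before each start were searched on both strands for short motifs of 4 factor families with known roles in T cells: CTTTGA for TCF/LEF, TGTTTA for forkhead factors such as FoxP3 and FoxO, TGTGGT for RUNX and CCGGAA for ETS. A single match was found, of the forkhead motif on the strand opposite to *Dapl1*, 163 to 158 bases before its start. Of 32851 promoters of this length, 13.8% held the TCF/LEF motif, 12% the forkhead motif, 14% the RUNX motif and 12% the ETS motif. A match is a description of the letters and not of a bound site. The promoters of *Dapl1* (chr2:59484403-59484652, plus strand) and *Hs3st3b1* (chr11:63922285-63922534, minus strand) are shown, 5′ to 3′ on the strand of the gene with the match in capitals, as the one with a match and as one of another composition, with 50% G and C and 4 CpG in *Dapl1* against 62.4% and 17 CpG in *Hs3st3b1*.
*Dapl1*: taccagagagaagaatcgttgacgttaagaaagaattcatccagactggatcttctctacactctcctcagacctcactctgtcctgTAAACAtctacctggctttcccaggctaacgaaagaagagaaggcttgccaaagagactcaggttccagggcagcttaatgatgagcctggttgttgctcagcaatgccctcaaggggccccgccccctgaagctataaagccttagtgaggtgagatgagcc
*Hs3st3b1*: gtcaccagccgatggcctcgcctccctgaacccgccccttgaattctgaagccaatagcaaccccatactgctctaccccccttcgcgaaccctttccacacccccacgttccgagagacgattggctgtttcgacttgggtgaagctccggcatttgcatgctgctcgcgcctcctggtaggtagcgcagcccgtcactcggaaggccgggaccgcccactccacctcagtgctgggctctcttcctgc

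*Lrrc75b* and *Ggt5* lie on chromosome 10 with *Ggt1* between them. *Ggt1*, at chr10:75561604-75586200, encodes the family's best known enzyme of glutathione breakdown, and 1273 bases separate it from *Lrrc75b* and 3139 bases from *Ggt5*. *Ggt1* was not chosen with the 6 genes. It had 5 and 8 counts in WT FoxP3+CD25+ libraries and 152 and 177 in WT FoxP3-CD25- libraries (0.792 ± 0.216 and 15.4 ± 4.01 CPM), or -4.24 on the log2 scale (SE 0.41). Like *Lrrc75b*, it passed the filter only through the populations in which it is high. In KO mice the FoxP3+CD25+ libraries had 10 and 5 counts, the FoxP3+CD25- libraries 52 and 85, and the FoxP3-CD25- libraries 149 and 131 (1.09 ± 0.616, 8.85 ± 0.632 and 20.95 ± 5.22 CPM). The 3 neighbours were thus low together in FoxP3+CD25+ cells of both genotypes. In KO mice the log2 fold change of *Ggt1* was -4.27 (SE 0.40) in FoxP3+CD25+ and -1.22 (SE 0.28, edgeR FDR = 0.0613) in FoxP3+CD25- cells, both against FoxP3-CD25- cells, with no overlap between libraries.

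The genes on either side were tested as well. *Snrpd3*, which encodes a protein of the spliceosome, begins the flank next to *Lrrc75b* and had a log2 fold change of -0.21 (SE 0.17, edgeR FDR = 0.651) in KO FoxP3+CD25+ against FoxP3-CD25- cells and -0.56 (SE 0.17, edgeR FDR = 0.0594) in WT. *Gucd1*, beyond it, was lower in FoxP3+CD25+ cells of KO mice (log2 fold change -0.96, SE 0.14, edgeR FDR = 0.00199) and of WT mice (-1.27, SE 0.14, edgeR FDR = 0.000178). On the side of *Ggt5*, *Susd2* was higher in FoxP3+CD25+ cells of WT mice (log2 fold change 1.40, SE 0.25, edgeR FDR = 0.00402) with 0.17 in KO mice (SE 0.26, edgeR FDR = 0.857). *Cabin1*, which encodes an inhibitor of calcineurin, had -0.13 in WT and -0.25 in KO mice (SE 0.12 each, edgeR FDR 0.596 and 0.374). Genes lower and higher in Tregs thus lay within 100 kb of one another in WT mice.

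**Figure D4:**
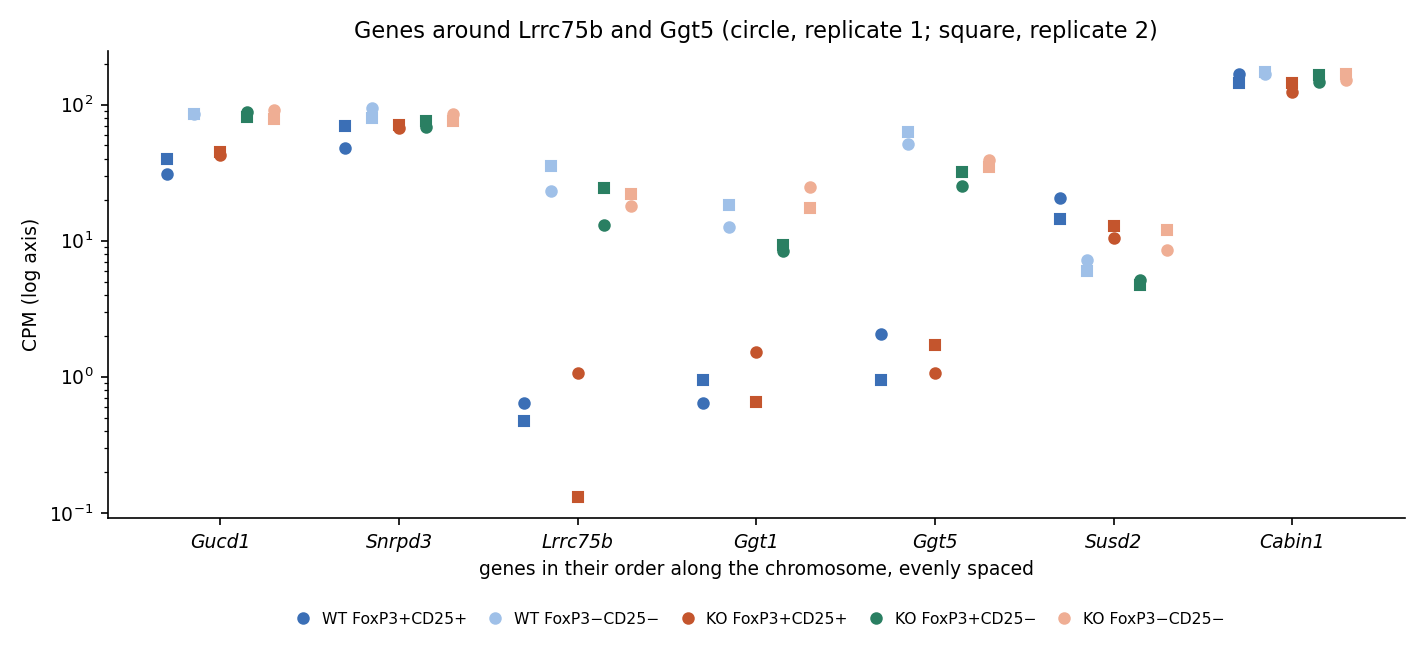
CPM (log axis) of *Lrrc75b*, *Ggt5* and the 5 genes tested within 100 kb of them, evenly spaced in chromosome order, in each library (colour, group; circle, replicate 1; square, replicate 2). In *Lrrc75b*, *Ggt1* and *Ggt5* the 4 FoxP3+CD25+ libraries lie at 2.05 CPM or below and the other 6 at 8.41 CPM or above, whereas the groups of *Snrpd3* and *Cabin1* lie close together.

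Around the other genes, *Axl* lies 13769 bases from *Cyp2s1* and encodes a receptor tyrosine kinase for the clearance of dying cells. It was highest in the FoxP3+CD25+ groups, in which *Cyp2s1* was lowest, with 64.9 ± 46.1 CPM in WT and 38.7 ± 13.3 CPM in KO FoxP3+CD25+ cells, 4.62 ± 1.51 CPM in KO FoxP3+CD25- cells, and 3.56 ± 1.53 and 9.40 ± 3.47 CPM in WT and KO FoxP3-CD25- cells (SD, n = 2). It was higher in FoxP3+CD25+ than in FoxP3-CD25- cells in WT (log2 fold change 4.15, SE 0.55, edgeR FDR = 0.000610) and in KO mice (2.02, SE 0.52, edgeR FDR = 0.0426). *Tgfb1*, 97397 bases from *Cyp2s1*, encodes a suppressive cytokine and was higher in WT FoxP3+CD25+ cells (log2 fold change 0.61, SE 0.15, edgeR FDR = 0.0214), with 0.29 in KO mice (SE 0.15, edgeR FDR = 0.404). Of 11 neighbours tested, none of which lay near *Dapl1* or *Myo10*, FoxP3+CD25+ cells had 3 higher and 2 lower in WT mice (7.15% and 3.75% of all genes tested), and 1 higher and 2 lower in KO mice (3.52% and 2.81%).

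Relatives of the 6 genes other than *Ggt1* were as follows. *Ggt7*, a more distant glutamyltransferase, had 11.3 ± 2.12 CPM in WT FoxP3+CD25+ and 3.98 ± 0.229 CPM in WT FoxP3-CD25- cells (log2 fold change 1.49, SE 0.28, edgeR FDR = 0.00574; SD, n = 2), the opposite of *Ggt5*, and a log2 fold change of 0.70 in KO mice (SE 0.28, edgeR FDR = 0.223). *Ggt6* and *Hs3st1*, another heparan sulfate sulfotransferase, had 0 counts in all 10 libraries, and *Hs3st3a1* had 1 count in each of 2 libraries, below the floor of 0.242 to 0.492 CPM. *Dap*, the relative of *Dapl1*, was lower in FoxP3+CD25+ cells but by less: 34.4 ± 1.62 against 64.5 ± 4.89 CPM in WT (log2 fold change -0.91, SE 0.11, edgeR FDR = 0.000432) and 41.0 ± 1.32 against 79.0 ± 2.07 CPM in KO mice (-0.95, SE 0.11, edgeR FDR = 0.000667). In KO FoxP3+CD25- cells *Dap* was at 54.0 ± 1.88 CPM, lower than in FoxP3-CD25- cells (-0.55, SE 0.11, edgeR FDR = 0.0360), where *Dapl1* had a positive estimate. That call of *Dap* was lost without any 1 KO library, without either WT FoxP3-CD25- library and with no filter on low counts.

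In the pathway of *Ggt5*, 13 of 22 genes of leukotriene and glutathione metabolism were tested. *Mgst2*, a microsomal glutathione transferase, was higher in FoxP3+CD25+ cells, with 59.7 ± 7.72 against 36.2 ± 1.38 CPM in WT (log2 fold change 0.72, SE 0.12, edgeR FDR = 0.002895) and 71.6 ± 3.67 against 40.6 ± 0.172 CPM in KO mice (0.82, SE 0.12, edgeR FDR = 0.00274). In WT mice *Ggt7* and *Cysltr2* were higher too, and in KO mice *Lta4h*, which makes a leukotriene. With *Ltb4r1*, a leukotriene receptor that passed the filter only through Tregs, that made 4 higher and 1 lower (*Ggt1*) in WT mice, where 7.15% and 3.75% of all genes tested were, and 2 higher and 1 lower (*Ggt1*) in KO mice, where 3.52% and 2.81% were. The median log2 fold change was 0.159 in WT and 0.0854 in KO mice, against -0.0213 and -0.00123 over all genes tested. With the mouse as a block 3 genes were lower in WT mice. Fewer genes were called higher in WT mice without WT FoxP3-CD25- replicate 1, or without both libraries of WT1. In KO mice fewer were called higher without any 1 of the 4 libraries compared. Without WT FoxP3+CD25+ replicate 2, 2 genes were lower in WT mice. In KO FoxP3+CD25- against FoxP3-CD25- cells edgeR called 0 genes, 3 had an unadjusted p under 0.05, and DESeq2 called 1; with the mouse as a block 1 was higher and 2 lower.

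In the pathway of *Hs3st3b1*, 20 of 39 genes of heparan sulfate synthesis, trimming and core proteins were tested. *Sdc4*, a core protein that carries heparan sulfate, moved opposite to *Hs3st3b1*: it had 29.1 ± 6.51 CPM in WT and 24.4 ± 4.46 CPM in KO FoxP3+CD25+ cells, 1.11 ± 0.487 CPM in KO FoxP3+CD25- cells, and 0.424 ± 0.454 and 0.777 ± 0.539 CPM in WT and KO FoxP3-CD25- cells (SD, n = 2). Its log2 fold change in FoxP3+CD25+ against FoxP3-CD25- cells was 5.94 in WT (SE 0.45) and 5.02 in KO mice (SE 0.47), and it passed the filter only through the Treg libraries. *Xylt2*, which starts the chain on the core protein, was lower, with 49.3 ± 3.05 against 99.5 ± 2.79 CPM in WT (-1.01, SE 0.16, edgeR FDR = 0.00173) and 54.5 ± 8.85 against 127 ± 27.1 CPM in KO mice (-1.22, SE 0.16, edgeR FDR = 0.00120). *Hpse*, the enzyme that cuts heparan sulfate, was higher in FoxP3+CD25+ cells of both genotypes (log2 fold change 2.11 in WT and 1.89 in KO mice, given with no test for the same reason). *Sulf2*, which removes sulfate groups, was also higher and *Hs6st1*, another sulfotransferase, lower in WT Tregs. In all, 3 genes were higher and 2 lower in WT mice (7.15% and 3.75% of all genes) and 2 higher and 1 lower in KO mice (3.52% and 2.81%), with medians of 0.0161 and 0.00093. DESeq2 called 1 higher and 1 lower in either genotype. Counts in WT mice fell to 1 higher without WT FoxP3+CD25+ replicate 1 or either WT FoxP3-CD25- library, and to 1 lower without any 1 of the 10 libraries. In KO mice 1 was higher without any 1 of the 4 libraries compared or either WT FoxP3-CD25- library, and 2 were lower without either WT FoxP3+CD25+ library or with the mouse as a block.

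In the group of *Myo10*, 23 of 33 genes of unconventional myosins and filopodia were tested, and *Myo1e*, a myosin that links membrane to actin, was the clearest. It was higher in FoxP3+CD25+ cells, with 92.4 ± 25.8 against 8.10 ± 4.01 CPM in WT (log2 fold change 3.48, SE 0.33, edgeR FDR = 7.75e-05) and 67.6 ± 12.35 against 18.1 ± 0.196 CPM in KO mice (1.90, SE 0.31, edgeR FDR = 0.004515). *Myo3b* and *Myo1c* were higher and *Daam1*, a formin, lower in WT FoxP3+CD25+ cells. In KO mice *Myo1f*, a myosin of blood cells, was lower in FoxP3+CD25+ (28.7 ± 8.57 CPM) and in FoxP3+CD25- cells (14.04 ± 4.38 CPM) than in FoxP3-CD25- cells (101.5 ± 16.1 CPM; log2 fold changes -1.83 and -2.88, SE 0.48 and 0.51, edgeR FDR 0.0478 and 0.0204). The counts were 7 higher and 1 lower in WT (all genes, 7.15% and 3.75%) and 1 and 1 in KO mice (3.52% and 2.81%), with medians of 0.12 and 0.0883. With the mouse as a block they were 7 and 2 in WT and 4 and 4 in KO mice, and by DESeq2 4 and 1 in WT and 2 and 0 in KO mice. Without WT FoxP3+CD25+ replicate 1, WT FoxP3-CD25- replicate 1 or WT FoxP3-CD25- replicate 2, 3, 3 and 4 were higher in WT mice, and without WT FoxP3-CD25- replicate 1, 0 were lower. In KO mice *Myo1f* was not called in FoxP3+CD25+ cells without any 1 library other than those of WT FoxP3+CD25+ cells, nor in FoxP3+CD25- cells without either library of those cells or KO FoxP3-CD25- replicate 2, and without either WT FoxP3+CD25+ library or WT FoxP3-CD25- replicate 2, 2 genes were higher in KO FoxP3+CD25+ cells.

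In the group of *Cyp2s1*, 13 of 26 genes of aryl hydrocarbon and retinoid pathways were tested. *Ahr*, the aryl hydrocarbon receptor, was opposite to *Cyp2s1* in WT mice, with 43.1 ± 24.8 CPM in FoxP3+CD25+ and 7.86 ± 2.36 CPM in FoxP3-CD25- cells (log2 fold change 2.43, SE 0.36, edgeR FDR = 0.00135). In KO mice *Ahr* had 33.6 ± 5.51 CPM in FoxP3+CD25+, 9.41 ± 1.09 CPM in FoxP3+CD25- and 20.2 ± 1.64 CPM in FoxP3-CD25- cells, and a log2 fold change of 0.73 (SE 0.35, edgeR FDR = 0.352) in the first against the last. *Rarg*, a retinoic acid receptor, was higher in FoxP3+CD25+ cells of WT (124 ± 3.08 against 52.05 ± 3.12 CPM, edgeR FDR = 0.00260) and KO mice (113 ± 13.95 against 44.6 ± 13.0 CPM, edgeR FDR = 0.00354), as was *Stra6*, a receptor for retinol uptake (9.15 ± 4.43 against 0.145 ± 0.0874 CPM in WT and 4.58 ± 1.29 against 0.280 ± 0.163 CPM in KO mice, with no test, since the filter was passed through Tregs). *Dhrs3*, a retinal reductase, was higher in WT mice, and *Aldh1a2*, which makes retinoic acid, was counted in KO mice, where it had 1.95 ± 0.908 CPM in FoxP3+CD25+ and 0 CPM in the other KO populations. That made 4 higher in WT (7.15% of all genes tested) and 3 higher in KO mice (3.52%), with medians of 0.091 and 0.1, and these counts include *Stra6* and, in KO mice, *Aldh1a2*. Lower genes numbered 0 in both by edgeR and by DESeq2, and 0 and 1 at an unadjusted p under 0.05, and the mouse block called 1 lower in KO mice. Without both libraries of WT1, 2 were higher in WT mice, and without either KO FoxP3-CD25- library, 1 in KO mice.

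Genes of naive and resting T cells, the state in which *Dapl1* is best known, were lower in FoxP3+CD25+ cells more often than higher. Of 22 genes tested, 10 were lower and 3 higher in WT (3.75% and 7.15% of all genes tested) and 9 lower and 2 higher in KO mice (2.81% and 3.52%), with medians of -0.431 and -0.337. The higher genes were *Bcl2*, a survival factor, and the receptor gene *Cd27* in both genotypes, with *Id3*, a regulator of transcription, in WT mice. *Lef1* and *Tcf7*, transcription factors of naive T cells, fell in WT FoxP3+CD25+ cells (log2 fold change -1.65 and -1.20, SE 0.15 and 0.12, edgeR FDR 5.70e-05 and 0.000107), and in KO cells (-0.89 and -1.22, SE 0.15 and 0.12, edgeR FDR 0.00420 and 0.000188). *Tdrp*, *Igfbp4* and *Dap* were lower in KO FoxP3+CD25+ cells as well. In KO FoxP3+CD25- cells 8 of 22 were higher than in FoxP3+CD25+ cells, with 2.25% over all genes (13 higher and 2 lower with the mouse as a block, 9 and 1 by DESeq2), led by *Lef1* at 641 ± 15.7 against 270 ± 48.0 CPM, *Tdrp* at 103 ± 3.79 against 24.8 ± 2.31 CPM, *Il7r* at 1161 ± 86.0 against 410 ± 58.4 CPM and *Tcf7* at 1683 ± 80.7 against 882 ± 2.53 CPM. Against FoxP3-CD25- cells edgeR called *Dap* alone, lower (DESeq2, 1 lower and 1 higher; edgeR with the mouse as a block, 2 lower and 3 higher), and it was not called without either WT FoxP3-CD25- library or any 1 KO library, nor with no filter on low counts, where 1 other gene was higher. Without WT FoxP3-CD25- replicate 1 or 2 or WT FoxP3+CD25+ replicate 2, 0 genes were higher in WT Tregs (FoxP3+CD25+). In those of KO mice 0 were higher without either KO FoxP3-CD25- library or KO FoxP3+CD25+ replicate 2, and 1 without KO FoxP3+CD25+ replicate 1, KO FoxP3+CD25- replicate 1 or either WT FoxP3-CD25- library.

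Listed genes of activated and memory T cells were higher in FoxP3+CD25+ cells more often than lower. *Cd44* was among those called higher in WT but not in KO mice, and whether the pattern reflects activation was not tested. Of 23 tested, FoxP3+CD25+ cells of WT mice had 13 higher and 0 lower, with 7.15% and 3.75% over all genes (0 lower by DESeq2 and at an unadjusted p under 0.05), and those of KO mice 7 higher and 1 lower, with 3.52% and 2.81% over all genes (2 lower by DESeq2 and 6 with the mouse as a block), with medians of 1.23 and 0.176. *Tnfrsf9* and *Tnfrsf4*, costimulatory receptors, led in both genotypes, with 121 ± 6.86 against 9.065 ± 0.416 CPM and 145 ± 22.6 against 16.8 ± 2.28 CPM in WT. In KO FoxP3+CD25- cells 10 of 23 were lower than in FoxP3-CD25- cells, against 1.35% of all genes tested, with a median log2 fold change of -1.63, and 15 lower than in FoxP3+CD25+ cells, against 4.76%, with a median of -2.09. *Cd44*, an adhesion receptor of activated cells, had 17.01 ± 1.315 CPM in KO FoxP3+CD25-, 152 ± 6.23 CPM in KO FoxP3-CD25- and 118 ± 8.20 CPM in KO FoxP3+CD25+ cells (edgeR FDR 0.000160 and 6.29e-05 against FoxP3+CD25-). The 10 became 4 without KO FoxP3+CD25- replicate 1, 2 without replicate 2 and 6 without KO FoxP3-CD25- replicate 2, and the 13 became 8 without WT FoxP3+CD25+ replicate 1 or WT FoxP3-CD25- replicate 2. The single lower gene in KO FoxP3+CD25+ cells, the chemokine receptor gene *Cxcr3*, was not called without KO FoxP3+CD25+ replicate 2, and 2 genes were lower without KO FoxP3-CD25- replicate 1 or either WT FoxP3-CD25- library.

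Over the 10 libraries the log2 CPM of the 6 genes were alike, with Pearson r between 0.858 and 0.984 over 15 pairs (median 0.935, n = 10). The libraries share their group and mouse, and the genes were selected for a difference that runs through them, so r is a description. *Dapl1* and *Myo10* were the least alike pair and *Ggt5* and *Cyp2s1* the most alike. Among the 13795 other genes tested, genes of the highest r were *Atp8b4* (r = 0.985) and *Orai2* (0.985) for *Lrrc75b*, *Slc20a1* (0.9905) and *Fam78a* (0.990) for *Ggt5*, *Adh1* (0.980) for *Dapl1*, *Sgk1* (0.978) and *Ggt1* (0.968) for *Myo10*, *Nlk* (0.985) for *Hs3st3b1*, and *Slc26a11* (0.990) and *Tspan14* (0.986) for *Cyp2s1*.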

How the data were processed

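RNA of sorted spleen CD4+ T cells was sequenced as 50 bp reads. For alignment to mm10 the authors ran HISAT2 (version 2.1.0). They deposited raw counts of reads per gene symbol from HTSeq (version 0.11.1 in the submitters' processing notes; the methods name another version). The labels name the NEBNext Ultra kit and the methods its later version. The counting's strand setting and annotation were not given in the sources used here. Rows of reads assigned to no gene (71.5% to 74.0% of reads per library) were left out of library sizes and tests. Groups came from the labels.

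Counts were analysed in R (version 4.3.3) with edgeR (version 4.0.16) and limma (version 3.58.1). Of the symbols, 13796 passed filterByExpr at its minimum count setting of 10. TMM factors were followed by a quasi-likelihood fit of all 10 libraries with a mean per group, tested two-sided at FDR 0.05 (common biological coefficient of variation 0.147). SE was taken from the log2 fold change and its F statistic. Fold changes between KO and WT mice and all values of the WT comparison for the 6 genes are descriptions. Alternatives were no filter, RLE factors, DESeq2 (version 1.42.0), the mouse as a block and each library left out. Leaving out both libraries of WT1 was added after seeing the data. The numbers in the labels were taken to pair libraries of a mouse. Deviations from the group means of same-numbered libraries correlated at 0.303 in WT and 0.421 to 0.445 in KO mice over 13796 genes. The steps were tested on simulated data, with the limit for acceptance lowered after that outcome was seen. Positions and exon lengths came from GENCODE M21 (GRCm38, the build of mm10); 95.8% of symbols named 1 gene, with 97.7% of counts. Other steps ran in Python (version 3.11.15): tables in pandas (version 2.3.3) and numpy (version 2.4.6), counting intervals in scipy (version 1.17.1), and figures in matplotlib (version 3.10.9).

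The 6 genes and all gene lists were chosen with earlier results of these data known. Genes named are the 6 genes, relatives of theirs, neighbours within 100 kb, the 2 genes most like each by Pearson r of log2 CPM (prior count 2; not all are reported here), up to 4 genes of lowest p per list and comparison at FDR under 0.05, and *Satb1*, *Foxp3* and *Il2ra*. *Cysltr2*, *Hs6st1*, *Bcl2*, *Cd27* and *Id3* fell outside this rule and were named to complete small counts, and *Xist*, *Gm26707* and single marker genes were picked with their values in view.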

Additional observations from a re-analysis of the deposited data

Results flagged for a closer look

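*Dapl1* moved in opposite directions between KO and WT mice in the 2 populations that both genotypes share. In FoxP3+CD25+ cells both KO libraries (7.48 and 7.21 CPM) were above both WT libraries (4.35 and 5.79 CPM), and in FoxP3-CD25- cells both KO libraries (19.0 and 29.9 CPM) were below both WT libraries (56.7 and 71.4 CPM). The log2 fold change of KO against WT was larger by 1.9 in FoxP3+CD25+ than in FoxP3-CD25- cells (0.53 against -1.37). The difference was not tested, since *Dapl1* was chosen on the WT libraries. In FoxP3+CD25+ cells the WT and KO libraries held 34 to 55 counts of the gene.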

How the results depend on the processing

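The direction of the 6 genes in KO FoxP3+CD25+ cells, against either other KO population, held under all 15 alternatives run. The calls lost without 1 library, of *Dapl1* and *Myo10*, stand beside the results; where that leaves 1 library in a group, it is assumed to vary like the other groups. In KO FoxP3+CD25- against FoxP3-CD25- cells the paired fit with the mouse as a replicate block called 1 of the 6 genes, *Dapl1*. There the log2 fold change of *Lrrc75b* was -0.6045 without KO FoxP3+CD25- replicate 2 and turned to 0.2782 without KO FoxP3+CD25- replicate 1 and 0.09127 without KO FoxP3-CD25- replicate 2; the cause was not tested. The genes called numbered 1504 in the WT comparison, 874 in KO FoxP3+CD25+ against FoxP3-CD25- cells, 230 in KO FoxP3+CD25- against FoxP3-CD25- cells, while 967 were called in KO FoxP3+CD25- against FoxP3+CD25+ cells. With the mouse as a replicate block they were 2634, 1649, 786 and 2090, and the block changed no other call of the 6 genes. Without 1 library they ranged from 828 to 2185, 396 to 1029, 30 to 323 and 410 to 1189. Lowest were, in that order, the fits without WT FoxP3-CD25- replicate 2, KO FoxP3+CD25+ replicate 2, KO FoxP3+CD25- replicate 2 and again KO FoxP3+CD25- replicate 2. Other large drops were to 970 and 956 without WT FoxP3+CD25+ or FoxP3-CD25- replicate 1, to 425, 441 and 430 without KO FoxP3+CD25+ replicate 1 or KO FoxP3-CD25- replicate 1 or 2, to 82 and 64 without KO FoxP3+CD25- replicate 1 or KO FoxP3-CD25- replicate 2, and to 489, 562 and 544 without KO FoxP3+CD25+ replicate 1, KO FoxP3+CD25- replicate 1 or KO FoxP3+CD25+ replicate 2. The WT comparison called 715 genes without both libraries of WT1, and 230 became 411 with no filter and 366 with DESeq2. Of 720 list counts under alternatives, 555 stayed within 1.5 times and 165 moved further, 22 of 48 under the block. Depth limits the size of the *Lrrc75b* difference, with 8 counts over both KO FoxP3+CD25+ libraries.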
